A study of Mus musculus with 2 samples.

Results

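The 8 genes described here encode the thin filament of heart muscle and the proteins that set its length. They are Actc1, Acta1, Tnnt2, Tnni3, Tnnc1, Tpm1, Lmod2 and Tmod1, taken by name from the UMI tables of both studies of the series, which list 24522 and 22679 genes. All 8 were found in both tables. The cells were single heart muscle cells of adult wild-type C57BL/6 mice, freed from perfused hearts by digestion, picked on a large-particle sorter and profiled by SCRB-seq, a plate method that counts polyadenylated RNA ends with unique molecular identifiers (UMIs). One study labelled unfixed cells of mice about 3 months old by the chamber they came from, as cells of the left or right atrium (LA, RA) or of the left or right ventricle (LV, RV), in 4 libraries named A to D, and the other labelled ventricular cells of adult mice as ethanol-fixed or live. A cell was kept when it reached 1000 gene UMIs and 500 genes: 56 of 71 LA, 44 of 69 RA, 91 of 96 LV, 90 of 96 RV, 35 of 36 fixed and 31 of 36 live cells. The labels tie no cell to an animal. Every group was therefore read as 1 pool, differences could not be tested, and each interval below is a 95% interval for counting error only.

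Thin filaments are polymers of actin with tropomyosin lying along them and a troponin complex at regular steps. Calcium binding to troponin moves tropomyosin and uncovers the sites on actin that myosin grips, and this is the switch of each heartbeat. The adult mouse heart uses cardiac alpha-actin (Actc1) with a smaller amount of skeletal alpha-actin (Acta1), an actin known to rise in the fetal and the overloaded heart.

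Both actin promoters are shown because the actin genes differed below. Over LV and RV cells Actc1 moved with the troponins from cell to cell and Acta1 did so far less. Tmod1 did not move with them either, and the part of counting noise was not tested. The windows run from 250 bases before to 50 bases after the RefSeq gene start on GRCm38.p6, written in the direction of transcription, at chr2:114052826-114053125 (minus strand) for Actc1 and chr8:123894726-123895025 (minus strand) for Acta1. Capitals mark the CArG box, the element bound by serum response factor.
Actc1: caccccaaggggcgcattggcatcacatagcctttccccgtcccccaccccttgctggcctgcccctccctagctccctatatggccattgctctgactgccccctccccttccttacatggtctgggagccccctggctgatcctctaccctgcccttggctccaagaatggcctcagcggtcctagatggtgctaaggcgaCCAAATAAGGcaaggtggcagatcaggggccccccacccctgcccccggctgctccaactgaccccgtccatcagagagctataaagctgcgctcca
Acta1: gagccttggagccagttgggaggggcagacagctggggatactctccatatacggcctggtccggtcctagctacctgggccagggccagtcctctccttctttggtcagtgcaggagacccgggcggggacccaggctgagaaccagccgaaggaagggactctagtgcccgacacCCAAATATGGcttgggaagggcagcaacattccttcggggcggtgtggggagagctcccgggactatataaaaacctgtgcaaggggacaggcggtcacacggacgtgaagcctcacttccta
The box began 47 bases before the RefSeq start in Actc1 and 73 bases before it in Acta1. It was searched on both strands, and 1.63% of 32851 RefSeq mouse promoter windows of the same length hold one. The windows of the other 6 genes held no letters that matched it. The hexamer CATTCC, the core bound by TEAD factors, was in the windows of Acta1, Tnnt2, Tnnc1, Tpm1 and Tmod1, and in 14.7% of all windows. TATAAA was in the windows of Actc1 and Acta1 and in 13.6% of all windows. It began 33 bases after the RefSeq start in Actc1 and 7 bases before it in Acta1. All these distances are from the annotated start, and where transcription starts in these cells was not tested. GATAAG was in the window of Tnni3 and in 7.44% of all windows, and a MEF2 site in none of the 8 and in 3.19%.

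Pools held between 470095 nuclear-encoded UMIs (RA) and 2988611 (RV). Levels are UMIs per 1000000 of these (CPM), and the 8 genes are not ranked by level. The labels were checked against fixed markers. Of the atrial markers Nppa, Myl7, Myl4 and Sln, the RA pool held no UMI, and in the LA pool, where Nppa was at 0, the others took 0.00964% of UMIs, against 0.000818% in LV and 0.000569% in RV. Most of those in LA were Myl7, which had 81 UMIs in LA, against 3 in LV and 0 in RV. The 8 genes listed as ventricular markers were Myl2, Myl3, Myh6, Myh7, Pln, Ryr2, Mybpc3 and Ttn. They took 4.14% of the LA and 5.87% of the RA pool, against 5.16% of LV and 5.45% of RV. The list was not restricted to genes absent from atrial muscle, so this sum cannot decide the label. Of the listed genes, the ventricular myosin light chain Myl2 was at 9322 CPM in LA and 11721 CPM in RA, against 10497 CPM in LV and 10335 CPM in RV. By Nppa and by the trace level of the other atrial markers the atrial label goes against these data, although LA held more of those than the ventricles did. The cells are called cells labelled LA or RA. Red cell genes took 2.68% of LA and 4.98% of RA UMIs, against 1.21% in LV and 1.298% in RV, and the mesothelial markers 0.128% and 0.0130%, against 0.00444% and 0.00602%. An alternative given at the end left out cells over 2% non-myocyte RNA, a sum of markers that includes these. It kept 30 LA, 9 RA, 70 LV and 73 RV cells. Otherwise the part of these genes in the differences below was not tested. All 84 cell barcodes recurred in at least 2 libraries, since every plate uses the same set.

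Together the 8 genes took 4.26% of nuclear-encoded UMIs in cells labelled LA and 5.16% in cells labelled RA, against 4.51% in LV and 4.70% in RV. In the second study they took 1.70% in fixed and 2.34% in live cells. The counts of the studies come from separate tables, and levels are not compared between them. Single kept cells ranged from 0.298% to 6.35% in LA and from 0.586% to 8.01% in LV.

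**Figure D1:**
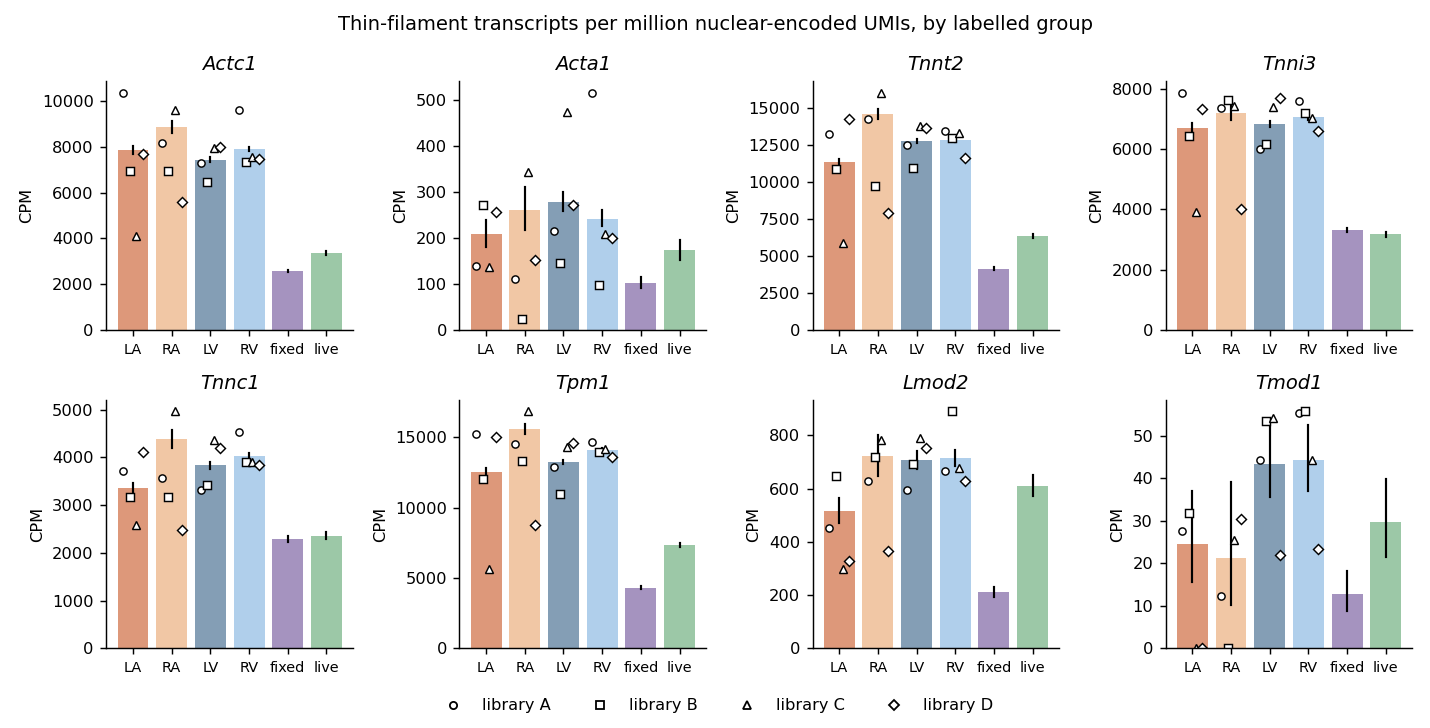
Level of each gene (CPM, linear axis) in the pools of cells labelled LA, RA, LV, RV, fixed and live. Bars are pools of kept cells, black lines their 95% counting intervals and open symbols the 4 libraries of the chamber study, in which the library symbols of most genes spread more widely in LA and RA than in LV and RV.

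The actins come first. Actc1 (chromosome 2, 114047282 to 114053548, minus strand, GRCm38) stood at 7848 CPM in LA and 8854 CPM in RA, against 7432 CPM in LV and 7915 CPM in RV. It was at 2574 CPM in fixed cells and 3370 CPM in live cells. Acta1 (chromosome 8, 123891769 to 123894751, minus strand) stood at 209 CPM in LA and 262 CPM in RA, against 278 CPM in LV and 243 CPM in RV, and at 103 CPM in fixed cells, against 174 CPM in live cells. So Acta1 RNA made up 2.59% (2.25 to 2.98%) of the 2 actins in LA and 2.87% (2.39 to 3.42%) in RA, against 3.61% (3.35 to 3.88%) in LV and 2.97% (2.76 to 3.20%) in RV. It made up 3.84% (3.38 to 4.33%) in fixed and 4.91% (4.34 to 5.53%) in live cells. The coding sequences of the pair are 86.2% identical over 1134 bases, with a longest shared run of 29 bases, while their 3′ untranslated regions share no run over 8 bases. How reads that map to both were treated is not given in the sources used here. Within libraries the Acta1 share ran from 2.20% to 5.62% in LV and from 1.31% to 5.10% in RV, so libraries of 1 chamber differed by more than the pooled chambers did.

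The troponin subunits are Tnnt2, which binds tropomyosin, Tnni3, which inhibits the interaction of actin and myosin, and Tnnc1, which binds calcium. Tnnt2 (chromosome 1, 135836354 to 135852260, plus strand) was at 11335 CPM in LA and 14616 CPM in RA, against 12773 CPM in LV and 12869 CPM in RV. Its level was 4156 CPM in fixed cells, against 6341 CPM in live cells. Tnni3 (chromosome 7, 4518305 to 4524229, minus strand) was at 6703 CPM in LA and 7192 CPM in RA, against 6825 CPM in LV and 7079 CPM in RV. Tnni3 alone of the 8 had a pooled level in fixed cells above that in live cells, with 3325 CPM in fixed against 3175 CPM in live cells, and this turned round with cells weighted equally (log2 ratio -0.083) or each gene's top cell left out (-0.014). Tnnc1 (chromosome 14, 31208312 to 31211729, plus strand) was at 3352 CPM in LA and 4388 CPM in RA, against 3830 CPM in LV and 4023 CPM in RV, and at 2287 CPM in fixed cells, against 2361 CPM in live cells. Of the troponin UMIs, Tnnt2 made up 53.0% in LA and 55.8% in RA, against 54.5% in LV and 53.7% in RV. Tnni3 made up 31.3% (30.69 to 31.99%) in LA and 27.5% (26.7 to 28.2%) in RA, against 29.1% in LV and 29.5% in RV. Within libraries the Tnnt2 share ran from 47.5% to 56.7% over LA and RA, against 52.6% to 57.3% over LV and RV. Fixed cells had 42.6% (41.9 to 43.2%) Tnnt2, against 53.4% (52.7 to 54.1%) in live cells. Tnni3 made up 34.0% in fixed and 26.7% in live cells, and Tnnc1 23.4% and 19.9%. These shares do not depend on the total used for scaling.

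The slow skeletal troponin I, Tnni1, which the heart uses before birth, was close to absent. It gave 0 of 6259 troponin I UMIs in LA, which allows a share of up to 0.0479%, and 0 of 3381 in RA, which allows up to 0.0887%, both taken as 3 counts of the total rather than as an exact limit. It gave 10 UMIs in LV (0.0571%) and 5 in RV (0.0236%), of which the 10 in LV all came from library D. It gave 5 UMIs in fixed cells (0.0620%) and 1 in live cells (0.0212%). Slow skeletal troponin T, Tnnt1, made up 0.142% of Tnnt1 and Tnnt2 UMIs in LA and 0.131% in RA, against 0.237% in LV and 0.177% in RV, and 0.188% in fixed and 0.244% in live cells.

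Tpm1, the striated muscle tropomyosin gene (chromosome 9, 67022590 to 67049406, minus strand), was at 12563 CPM in LA and 15563 CPM in RA, against 13216 CPM in LV and 14089.8 CPM in RV. It was at 4323 CPM in fixed cells, against 7363 CPM in live cells. A pair of genes acts at the pointed end of the filament, where Lmod2 lengthens it and Tmod1 caps it. Lmod2 (chromosome 6, 24597762 to 24605414, plus strand) was at 517 CPM in LA and 721 CPM in RA, against 706 CPM in LV and 714 CPM in RV. In fixed cells it was at 212 CPM, against 609.9 CPM in live cells. Tmod1 (chromosome 4, 46038935 to 46116032, plus strand) was scarce, at 24.6 CPM in LA (23 UMIs) and 21.3 CPM in RA (10 UMIs), against 43.3 CPM in LV (111 UMIs) and 44.2 CPM in RV (132 UMIs). It was at 12.8 CPM in fixed (31 UMIs) and 29.7 CPM in live cells (44 UMIs). Of the 8 genes, 5 overlap another annotated gene: A530058N18Rik, Gm20388, Nisch and Tstd2 lie on the strand opposite Actc1, Acta1, Tnnc1 and Tmod1, and Dnaaf3 on the strand of Tnni3. Whether strand was used in counting is not given, so their reads may not be told apart.

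Between cells labelled atrial and ventricular the thin-filament genes hardly differed. Their summed level was 45588 CPM in LA and RA together, against 46110.2 CPM in LV and RV, a ratio of 0.989 (0.980 to 0.997). All 8 genes had at least 30 UMIs, and 1 of them, Tmod1, lay at least 1.5-fold apart on the scale of CPM + 5, which all ratios called here use, while 27.7% of the 11682 genes measured did so in either direction. The median log2 ratio of the 8 genes was -0.067, beside -0.063 for all genes. Tmod1 was 0.537 times as abundant in cells labelled atrial (0.362 to 0.775), at 23.5 against 43.8 CPM, and lower within all 4 libraries, though with 1 to 14 atrial UMIs in each. With each cell given equal weight its log2 ratio was -0.33 and with a pseudocount of 20 CPM it was -0.55, both short of 1.5-fold. Lmod2 was lower in cells labelled atrial within all 4 libraries too, by a pooled ratio of 0.824 (0.764 to 0.889), short of 1.5-fold. In the pools only LA was lower, at 517 CPM, while RA at 721 CPM was not below LV (706 CPM) or RV (714 CPM). Actc1 was the gene with the highest ratio, 1.06 (1.04 to 1.09), and it was higher in 2 of 4 libraries. The ratio of the summed level within libraries was 1.08 in A, 0.942 in B, 0.990 in C and 0.902 in D.

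**Figure D2:**
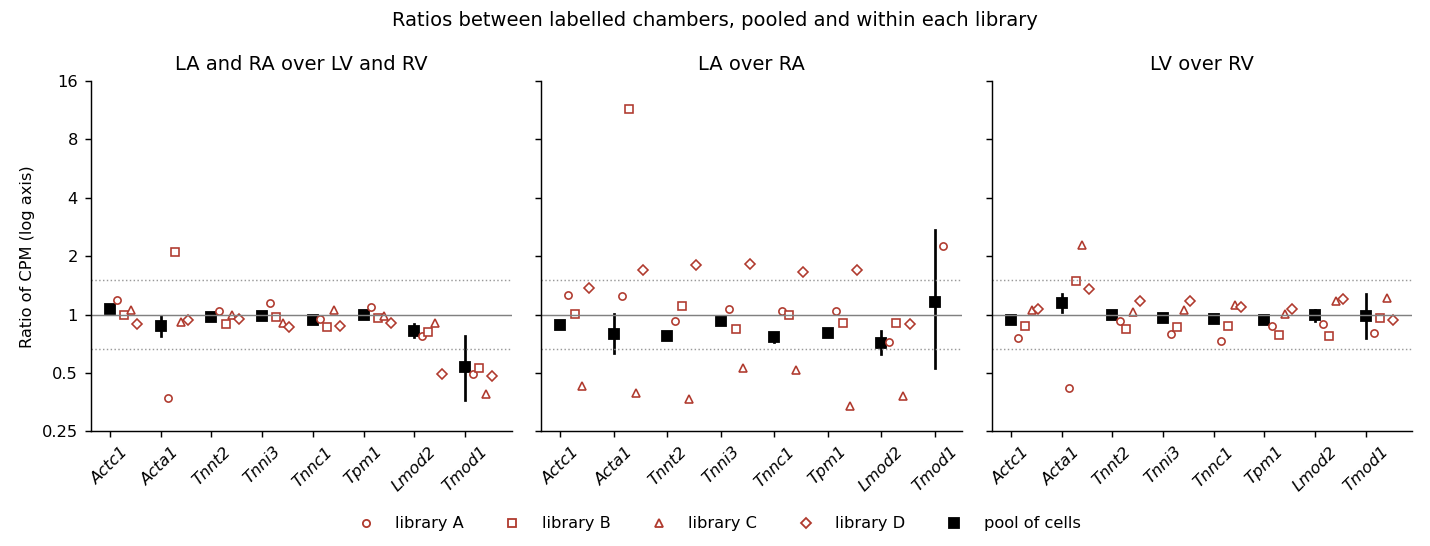
Ratio of CPM (log axis) of LA and RA over LV and RV, of LA over RA and of LV over RV for each gene. Black squares are pools with 95% counting intervals, open symbols single libraries, dotted lines 1.5-fold, and a library with no UMI on either side is not drawn, so that library C lies below 1 for the 7 drawn genes of LA over RA while library D lies above 1 for 6 of 7.

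LA over RA gave a summed level of 42552 CPM in LA and 51617 CPM in RA, a ratio of 0.824 (0.811 to 0.838). A few deep cells weigh most in these pools, above all in RA. Median gene UMIs per cell were 16146 in LA and 4436.5 in RA, and the deepest RA cell had 183391. The top RA cell held 28.2% of the UMIs of the 8 genes over 44 kept cells, and the top 5 held 73.2%. In LA the top cell of 56 held 8.9% and the top 6 held 40.25%. None of the 8 genes was 1.5-fold apart, beside 43.9% of 5715 genes measured, and their median log2 ratio was -0.31, beside 0.10 for all genes. The libraries disagreed. The summed ratio was 1.05 in A, 0.973 in B, 0.403 in C and 1.67 in D, and without library C the pooled log2 ratio was 0.083 in place of -0.28. In library C, 6 LA cells with 22579 CPM stood against 17 RA cells with 56057 CPM. Tpm1, for one, was at 5658 CPM in LA and 16843 CPM in RA of library C, and at 14988 CPM in LA and 8796 CPM in RA of library D. A difference between the atrial labels therefore changed direction with the library for 7 of the 8 genes. The exception was Lmod2, which was lower in LA within all 4 libraries (pooled ratio 0.717, 0.623 to 0.827), although with each cell weighted equally its log2 ratio was 0.087. Lmod2 passed 1.5-fold under 4 of 17 alternatives, with log2 ratios of -0.83 without library B and -0.61 in cells with at least 20000 UMIs among them. Acta1 gave log2 ratios of -0.89 without library B and 1.15 without library C, against -0.32 in the pools. Its top cell held 64.2% of the Acta1 UMIs of all kept RA cells.

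The 2 ventricles matched closely for 7 of the 8 genes. The summed level was 45103 CPM in LV and 46975 CPM in RV, a ratio of 0.960 (0.953 to 0.968), and none of the 8 genes reached 1.5-fold, beside 18.5% of 10812 genes measured. The median log2 ratio was -0.040, beside 0.034 for all genes. Tnnt2 had a ratio of 0.993 (0.978 to 1.01), Lmod2 0.989 (0.929 to 1.05) and Tpm1 0.938 (0.925 to 0.952). Here too libraries differed more than the pools: the summed ratio was 0.838 in A, 0.837 in B, 1.05 in C and 1.12 in D. Acta1 had the widest range. It was at 215 CPM in LV and 516 CPM in RV of library A, and at 474 CPM in LV and 208 CPM in RV of library C. Its pooled ratio of 1.15 (1.03 to 1.27) became a log2 ratio of 0.79 without library A and of -0.28 without library C. The top cell held 20.2% of the Acta1 UMIs of all kept LV cells and 21.5% of those of all kept RV cells. The part of single cells in the library values was not tested.

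The 8 genes differed among themselves between fixed and live cells. The summed level was 16991 CPM in fixed cells, against 23423 CPM in live cells, a ratio of 0.725 (0.715 to 0.736). Of the 8 genes, 5 (Acta1, Tnnt2, Tpm1, Lmod2 and Tmod1) were at least 1.5-fold lower in fixed cells, beside 33.8% of 7860 genes measured, and none was at least 1.5-fold higher, beside 7.54%. The median log2 ratio was -0.67, beside -0.31 for all genes. Lmod2 had the lowest ratio, 0.348 (0.312 to 0.389), then Tmod1 with 0.431 (0.263 to 0.698), Tpm1 with 0.587 (0.572 to 0.603), Acta1 with 0.591 (0.494 to 0.706) and Tnnt2 with 0.655 (0.637 to 0.674). Tnni3 with 1.05 (1.01 to 1.09) and Tnnc1 with 0.968 (0.928 to 1.01) lay near 1, and Actc1 with 0.764 (0.736 to 0.793) between.

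The size of these ratios, and the direction of Actc1 and Tnnc1, rest on the total. Acta1, Tnnt2, Tpm1, Lmod2 and Tmod1 were lower in fixed cells with each total tried. Mitochondrially encoded RNA took 14.9% of gene UMIs in fixed and 28.3% in live cells, and median gene UMIs per cell were 77150.0 and 40367. With edgeR's TMM scaling the median of all genes moved up by 0.41 on the log2 scale, the summed log2 ratio was 0.034 in place of -0.46, Tnni3 was at 0.56, Tnnc1 at 0.45 and Actc1 at 0.11 (all 3 then higher in fixed cells), and 1 gene, Lmod2, was still at least 1.5-fold lower. With the median of ratios as the scale, Tnni3 passed 1.5-fold in the other direction, at a log2 ratio of 0.63, and Lmod2 was at -0.94. Relative to the median of all genes, the log2 ratio was -1.19 for Lmod2, -0.65 for Tmod1, -0.46 for Tpm1, -0.42 for Acta1, -0.30 for Tnnt2, -0.077 for Actc1, 0.27 for Tnnc1 and 0.38 for Tnni3. Under TMM the same differences ran from -1.10 for Lmod2 to 0.47 for Tnni3, and that of Actc1 turned to 0.014. Lmod2 was at least 1.5-fold lower under all 13 alternatives tried. Acta1 was not firm: its top cell held 64.7% of all Acta1 UMIs of live cells and 40.6% of those of fixed cells, and its log2 ratio of -0.73 became -0.18 without those cells and 0.054 with each cell weighted equally. Per-cell medians of Acta1 in cells with at least 20000 UMIs were 22.4 CPM in fixed cells, against 69.1 CPM in live cells.

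The shortest transcripts of the set had the highest ratios. Ordered by the length of the principal GENCODE transcript, Tnnc1 (721 bases) and Tnni3 (912 bases) lay near 1, and Tpm1 (1898 bases), Lmod2 (1976 bases) and Tmod1 (3158 bases) were the 3 lowest. The order was not strict, since Tnnt2 (1200 bases, log2 ratio -0.61) and Acta1 (1446 bases, -0.73) lay below the longer Actc1 (1473 bases, -0.39). Across the 8 genes, Spearman's rho of length with the log2 ratio was -0.88, and across 6618 protein-coding genes it was -0.27. Genes are not independent replicates and no test was made. Median log2 ratios of protein-coding genes were -0.070 below 1000 bases (486 genes), -0.10 from 1000 to 2000 bases (1242 genes), -0.31 from 2000 to 4000 bases (2402 genes) and -0.56 above 4000 bases (2488 genes). The 5 members between 1000 and 2000 bases all lay below the median of their length class. Whether length sets these values was not tested.

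**Figure D3:**
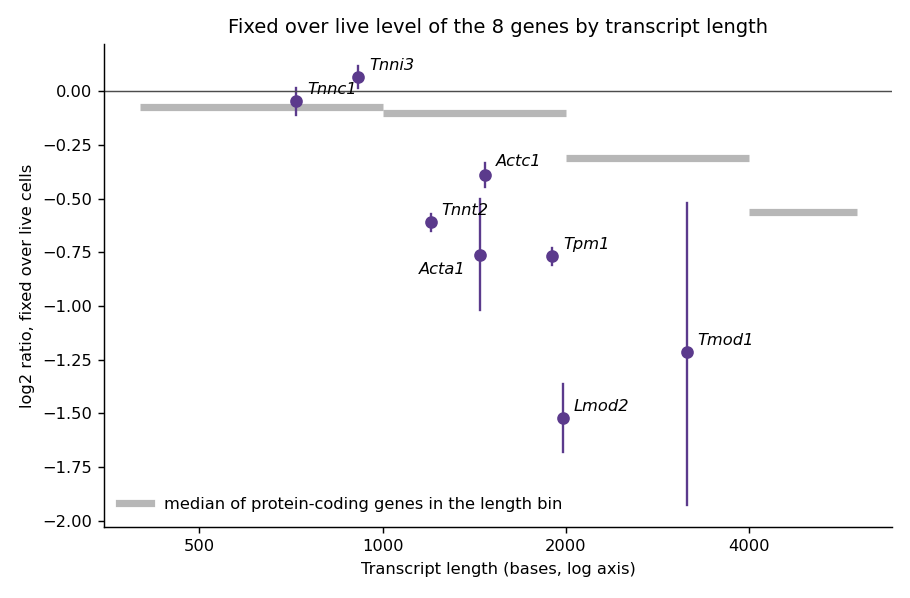
Log2 of the CPM ratio of fixed over live cells, without a pseudocount, against transcript length (log axis) for the 8 genes. Points are pools with 95% counting intervals and grey lines the medians of protein-coding genes by length class, and Tnnc1 and Tnni3 sit at the short end near 0 while Lmod2 and Tmod1 sit lowest.

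From cell to cell in LV and RV, 5 genes were steady and 3 were not. In the 76 LV and 80 RV cells with at least 20000 UMIs, Actc1, Tnnt2, Tnni3, Tnnc1 and Tpm1 varied with a coefficient of variation between 0.246 and 0.327. After the part due to counting was taken off it was 0.236 to 0.310. Actc1 ran from 668 CPM over a median of 7773 CPM to 13466 CPM in LV, and from 739.7 CPM over 7982 CPM to 15396 CPM in RV. Lmod2 had 0.489 in LV and 0.505 in RV before and 0.428 and 0.455 after that correction. Tmod1 had 1.77 in LV and 1.32 in RV after that correction, and 42 of the 76 LV cells and 39 of the 80 RV cells held no UMI of it.

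Acta1 was the most uneven member in LV and RV. Its coefficient of variation was 2.17 in LV and 2.05 in RV, and 2.13 and 2.02 after that correction. The median LV cell held 67.2 CPM and the highest 4477 CPM, and the median RV cell held 61.6 CPM and the highest 3418 CPM. The 8 cells richest in Acta1 UMIs held 63.7% of them in LV and 59.8% in RV, while the 8 richest in Actc1 UMIs held 23.9% in LV and 22.6% in RV. Cells with at least 1000 CPM of Acta1 numbered 2 of 24 in LA and 1 of 9 in RA, against 8 of 76 in LV and 2 of 80 in RV. They numbered 1 of 34 in fixed and 0 of 23 in live cells, which allows up to 13.0% of cells. Measured as a share of both actins, Acta1 had a median of 0.971% and a maximum of 31.4% in LV, 0.827% and 31.3% in RV, 0.662% and 50.8% in fixed and 1.94% and 16.8% in live cells. No group's median passed 2%, and all 6 groups held at least 1 cell above 10%.

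**Figure D4:**
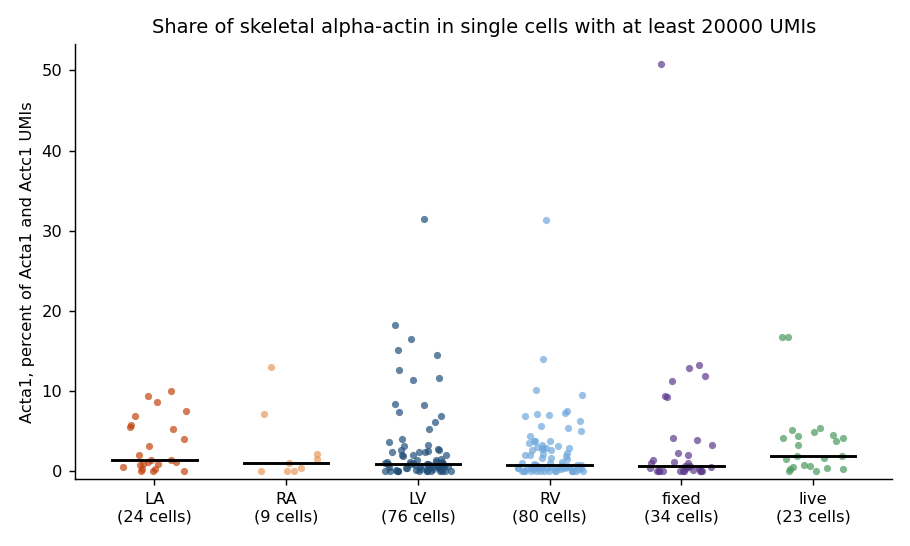
Acta1 as a percentage of Acta1 and Actc1 UMIs in each cell with at least 20000 UMIs (linear axis), by label. Each point is 1 cell and each black line a group's median, all of which lie below 2% while the highest cells reach 31.4% in LV, 31.3% in RV and 50.8% in fixed cells.

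The 5 steady genes also moved together. Over the 156 LV and RV cells with at least 20000 UMIs, with each chamber and library centred, Pearson's r of log2(CPM + 5) for their 10 pairs ran from 0.60 (Tnnt2 with Tnnc1) to 0.87 (Actc1 with Tpm1), with a median of 0.76. These cells include some low in all 5 genes at once. The summed level of the 8 genes ran down to 5863 CPM in LV and 5807 CPM in RV, against medians of 47168 and 48007 CPM. The part of such low cells in these r was not tested. Lmod2 followed the 5 genes less, with r from 0.40 to 0.51. Acta1 gave r from 0.11 to 0.27, and its r with Actc1 was 0.25. It had few UMIs in most cells, and 13 of the 76 LV and 15 of the 80 RV cells had none, and the part of counting noise in its r was not tested. Tmod1, with few UMIs, gave values from -0.11 to -0.049. In 57 fixed and live cells the 10 pairs had r from 0.45 to 0.75, and Acta1 from -0.12 to 0.14. In 33 cells labelled LA or RA the 10 pairs lay between 0.94 and 0.97, over cells whose summed level ran down to 2982 CPM in LA. These are descriptions of cells that share libraries, depth and total, and no p is given.

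**Figure D5:**
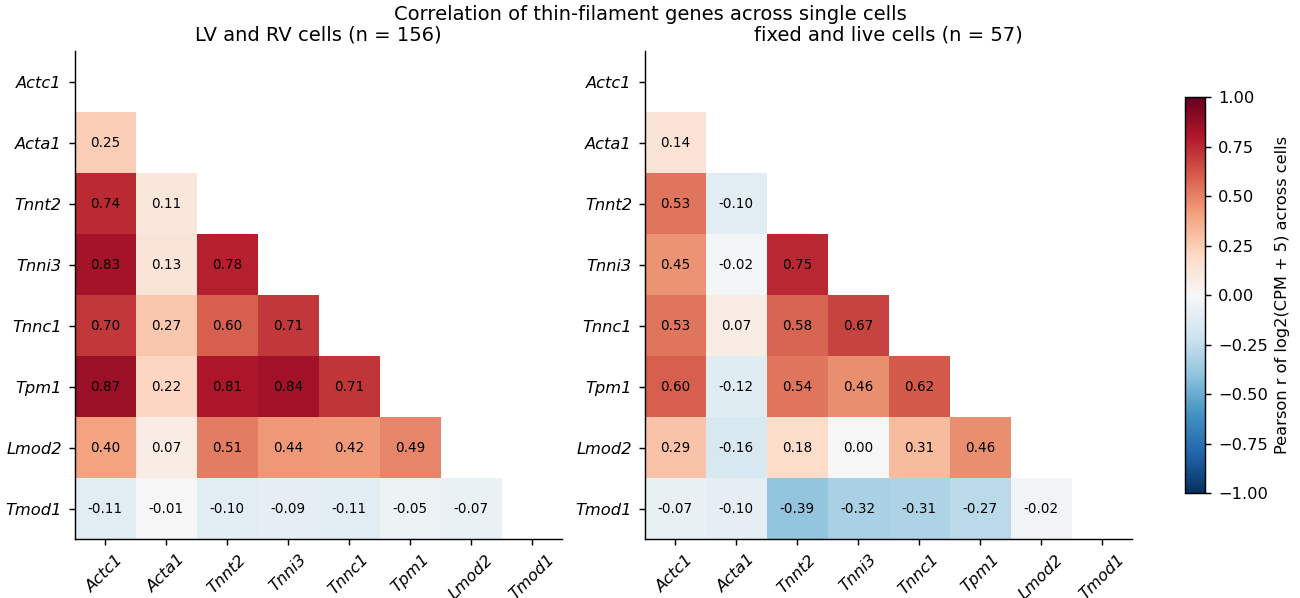
Pearson's r of log2(CPM + 5) between each pair of the 8 genes across single cells with at least 20000 UMIs, centred within chamber and library on the left (156 LV and RV cells) and within label on the right (57 fixed and live cells). Red marks positive and blue negative values, and the rows of Acta1 and Tmod1 are pale on the left, where the 10 pairs of Actc1, Tnnt2, Tnni3, Tnnc1 and Tpm1 reach 0.60 to 0.87.

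Of 678 genes with at least 200 CPM in the LV and RV pools, those most like the sum of the 8 genes across the 156 cells were Slc25a4 (r = 0.89), the mitochondrial ADP and ATP carrier, and Myl3 (0.86) and Myl2 (0.83), the ventricular myosin light chains. Atp5g1 (0.82) and Atp5b (0.79), subunits of ATP synthase, came next. The part of cells with a low sum in these r was not tested. The median over all 678 genes was 0.24, and in fixed and live cells the 5 genes gave 0.67, 0.75, 0.61, 0.53 and 0.55. For Acta1 alone, ranked after its values were seen, the highest were Ptgds (0.40), S100a1 (0.37) and Ankrd1 (0.36), a stretch-responsive muscle protein. Nme2 (0.34) and Gstm1 (0.32) came next, and the median over all 678 genes was 0.080. In fixed and live cells Ankrd1 gave 0.51, Ptgds 0.23, S100a1 0.092, Nme2 0.047 and Gstm1 -0.081.

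Other genes of the filament were read from lists chosen with earlier results in view. Of 6 measured other muscle isoforms, 1 was at least 1.5-fold higher in cells labelled atrial (Tmod4, 43.5 against 26.6 CPM) and none lower, beside 12.6% higher and 15.1% lower of all genes measured. Between the ventricles 2 of 6 were higher in LV and none lower, beside 11.4% and 7.18% of all genes: Tpm2, beta-tropomyosin, with 15.2 CPM in LV and 1.67 CPM in RV, and Lmod1, the smooth muscle leiomodin, with 12.9 CPM in LV and 2.34 CPM in RV. Of 6 smooth muscle and mural markers, 4 had at least 30 UMIs, and 1 of these, Myh11, was at least 1.5-fold higher in LV. Myh11 had 40 UMIs in LV and 6 in RV. Tagln, with 24 UMIs in LV and 1 in RV, and Cnn1, with 13 and 3, were under that minimum. The other measured markers stayed within 1.5-fold. The smooth muscle actin Acta2 was at 133 CPM in LV and 146 CPM in RV. The pericyte gene Rgs5 was at 78.7 CPM in LV and 63.6 CPM in RV, and Pdgfrb at 12.5 and 7.03 CPM. The part of smooth muscle RNA in the values of Tpm2 and Lmod1 was not tested.

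Of 19 measured genes of filament assembly and anchoring, 1 was at least 1.5-fold higher in cells labelled atrial and 2 were lower. Of all genes measured, 12.6% were higher and 15.1% lower. The higher one was Neb, nebulin (20.7 against 9.36 CPM), at 26.8 CPM in LA (25 UMIs) but 8.51 CPM in RA (4 UMIs). The lower ones were Tnni3k (155 against 247 CPM) and Fhod1 (1.43 against 5.94 CPM, with 2 UMIs in cells labelled atrial). Between LV and RV none of 19 was apart, beside 18.5% of all genes. Between LA and RA 2 of 14 were higher and 4 lower, beside 28.5% and 15.5% of all genes, the 4 being Actn2, the Z-disc crosslinker (1161 against 2104 CPM), Nebl (237 against 425 CPM), Nrap (241 against 432 CPM) and Fhod3, a formin of the sarcomere (509 against 804 CPM). In fixed cells 6 of 16 were lower and 1 higher, near the 33.8% and 7.54% of all genes. Nrap was at 146 CPM in fixed cells, against 386 CPM in live cells, Fhod3 at 296 and 741 CPM, and Xirp2 at 328 and 691 CPM. The one higher was Pfn1, the actin monomer binder profilin, at 52.0 CPM in fixed cells, against 31.7 CPM in live cells. Their median log2 ratio was -0.41, beside -0.31 for all genes.

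The cytoskeletal isoforms were lower in fixed cells for 3 of 3 measured, beside 33.8% of all genes: Actb at 102 CPM in fixed against 188 CPM in live cells, Actg1 at 26.4 and 51.2 CPM, and Tpm3 at 16.1 and 78.2 CPM. Between LA and RA 3 of 4 were higher, beside 28.5% of all genes, among them Tpm4 (56.8 against 23.4 CPM), and 4 of 4 mesothelial markers were higher there too, at 0.128% of UMIs in LA and 0.0130% in RA. The part of mesothelial RNA was not tested. Of 10 measured factors that act on actin gene promoters, 1 was lower in cells labelled atrial (Mrtfa, 10.7 against 18.5 CPM) and none higher, beside 15.1% and 12.6% of all genes. Serum response factor itself, Srf, was at 96.4 CPM in LA and 99.98 CPM in RA, against 93.1 CPM in LV and 80.6 CPM in RV. In fixed cells 6 of the 10 were lower and none was higher, beside 33.8% and 7.54% of all genes, and the median log2 ratio was -0.65, beside -0.31. Mef2a was at 47.4 CPM in fixed cells, against 116 CPM in live cells, Myocd at 79.6 and 153 CPM, and Srf, which stayed within 1.5-fold, at 31.3 and 41.1 CPM. For listed genes, calls between fixed and live cells used the total of nuclear-encoded UMIs only, and other totals were not tried. TMM moved the median of all genes up by 0.41 on the log2 scale.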

How the data were processed

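The authors deposited UMI counts and read counts per gene and cell barcode, not normalized, with a label and library for each cell. The submitters' processing notes name STAR 2.5.4b, featureCounts and GRCm38. No source used here gives the annotation release, the strand setting or how UMIs were collapsed. Gene IDs were matched to GENCODE M21 for symbols and coordinates (24489 of 24522 and 22648 of 22679).

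The members, gene lists and call rule were chosen with earlier results of these data known. All 8 members are named, and in the other lists genes with at least 30 UMIs were read. UMIs of kept cells were summed per label, with mitochondrially encoded genes outside the total. Ratios of CPM carry exact 95% Clopper-Pearson intervals. Log2 ratios and calls of at least 1.5-fold used CPM + 5, so low genes show smaller ratios. Groups were not tested against each other, since cells share a sample. Dixon's test was used only to find libraries far from the others. No doublet caller was run. Ranking genes by likeness to Acta1 and leaving out each gene's top cell were added after the values were seen. Other alternatives were other totals, weights, counts, filters and pseudocounts, and each library left out. The ratio and interval code was tested on simulated counts with known fold changes. Tnnc2 and Xirp1 were not analysed here. Tools were edgeR 4.0.16 in R 4.3.3 and, in Python 3.11.15, matplotlib 3.10.9, scipy 1.17.1, pandas 2.3.3 and numpy 2.4.6.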

Additional observations from a re-analysis of the deposited data

Results flagged for a closer look

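In 3 of 36 sets of 4 libraries, 1 library lay farther from the others than Dixon's test allows, and chance flags about 1 in 20 sets. Actc1 stood at 9613 CPM in RV cells of library A, and Tnnc1 at 4540 CPM (4539.6) in the same library and label. Tnni3 stood at 4004 CPM (4003.8) in RA cells of library D, where 8 cells were kept.

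Wells left out by the filter on cells also held RNA of the 8 genes. Their summed level was 33521 CPM in 15 wells labelled LA and 29517 CPM in 25 wells labelled RA, against 48344 CPM in 5 wells labelled LV and 48327 CPM in 6 wells labelled RV. It was 48544 CPM (23521 to 87459.7 CPM) in the 1 fixed well left out, which held 10 such UMIs, and 17422 CPM in the 5 live wells.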

How the results depend on the processing

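Fixed and live values have no replicate check, chamber values are checked across 4 libraries of unknown animals, and depth limits Tmod1 most. Values here are log2 ratios of the summed level of the 8 genes, then counts of genes at least 1.5-fold apart. For cells labelled atrial over ventricular (-0.016) the sum gave 0.14 with all UMIs as the total, -0.0014 with TMM, -0.00076 with the median of ratios, -0.24 with each cell weighted equally, -0.036 with read counts, 0.033 in cells with at least 20000 UMIs, 0.023 without cells over 2% non-myocyte RNA, -0.0018 without loci that differ between the studies and -0.041 without each gene's top cell, an alternative chosen after seeing the data. Leaving out a library gave -0.076 to 0.035. Its count of 1 became 0 with equal weights or a pseudocount of 20. For LA over RA (-0.28) the sum gave -0.37 with TMM, -0.34 with the median of ratios, 0.074 with equal weights, -0.44 with read counts, -0.37 in cells with at least 20000 UMIs, -0.50 without non-myocyte RNA and -0.31 without top cells, and -0.46 to 0.083 on leaving out a library. Its count of 0 became 1 with equal weights, 3 with read counts, 1 in cells with at least 20000 UMIs, 2 without non-myocyte RNA, 1 without top cells and 0 to 2 on leaving out a library. For LV over RV (-0.059) the sum gave -0.0050 with all UMIs, -0.14 with TMM, -0.16 with the median of ratios, 0.0038 with equal weights, -0.091 without non-myocyte RNA, -0.071 without those loci and -0.040 without top cells, and -0.13 to 0.00023 on leaving out a library. Its count of 0 became 1 with read counts, and 0 to 1 on leaving out a library. For fixed over live cells (-0.46) the sum gave -0.22 with all UMIs, 0.034 with TMM, 0.10 with the median of ratios, -0.52 with equal weights, -0.22 with read counts, -0.40 without those loci and -0.52 without top cells. Its count of 5 became 2 with all UMIs, 1 with TMM, 2 with the median of ratios (Lmod2 lower and Tnni3 higher), 3 with equal weights and 3 with read counts, and was 4 without top cells, where Acta1 no longer passed. Acta1 turned to 0.054 with equal weights. Of 512 values of single genes, 327 lay inside the counting interval of the value reported, 184 outside it and 1 turned round after passing 1.5-fold. The causes were not tested. The labels give no replicate numbers, and ratios paired by library stand in the results.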
